A study of Mus musculus with 8 samples.

Results

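Apolipoproteins are the proteins that coat lipoprotein particles and steer their fate, and the liver makes most of those found in plasma. The genes described here are the 10 apolipoproteins of liver Apoa1, Apoa2, Apoa4, Apoa5, Apob, Apoc1, Apoc2, Apoc3, Apoe and Apom. They were picked by name, out of 22180 genes measured. Each is read from the array row whose annotation names that gene alone, and where a gene had several such rows the one of highest mean was used. All 10 had exactly 1 such row, and no filter on low values was applied.

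Liver RNA was measured on 8 Affymetrix Mouse Gene 2.0 ST arrays, 4 labelled IL-10 knockout (titled IL-10-deficient) and 4 labelled wild-type. Both groups are labelled C57BL/6, female and 6 weeks of age, and both drank water with 3% dextran sulfate sodium (DSS), which injures the colon lining, for 7 days. The knockout allele is not given in the labels, and no animals without DSS are part of the series, so every difference below is between the labelled groups under DSS. Liver segments were taken whole, so fewer cells of a type and less RNA per cell cannot be told apart. The design text counts 4 mice a genotype, but the labels do not number the animals, so the p-values reflect only how much these 8 arrays vary.

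Levels are log2 values from robust multi-array averaging (RMA), made by the authors, and a difference is the knockout-labelled mean minus the wild-type mean. Errors are SD over n = 4 arrays a group unless SE or a confidence interval is named. A gene was called when its limma p, adjusted by Benjamini-Hochberg over the 22180 genes, was below 0.05. Because probes differ in brightness, levels of different genes are not set against each other.

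Several measured facts about the libraries touch these results. Il10 itself read higher in the knockout-labelled arrays, at 5.79, 5.69, 6.00 and 6.41, against 4.95, 5.08, 4.90 and 4.95 in the wild-type arrays (difference 1.00, limma adjusted p = 0.00851). That is opposite to what a lost transcript would give. The Il10 row is low, however, at percentile 27.4 of the genes. Its wild-type values lie below every array median, as do the knockout-labelled values of 5.79, 5.69 and 6.00. Which part of the gene the row reads relative to the deletion is not given in the labels, and the groups are called by their labels, knockout-labelled and wild-type. If the labels of the groups were exchanged, every sign below would turn. Although all mice are labelled female, Xist, the RNA of the inactive X chromosome, was high only in replicates 3 and 4 of both groups (11.8 in both knockout-labelled arrays and 11.7 in both wild-type arrays), and the Y-linked Kdm5d, Eif2s3y and Uty were high only in replicates 1 and 2 of both. These 2 sets of arrays, called Xist-signal and Y-signal below, hold 2 arrays of each group. Kidney tubule markers varied within both groups, with mean levels of 6.95, 7.53, 6.33 and 6.04 in the knockout-labelled arrays and 7.40, 6.13, 6.99 and 6.30 in the wild-type arrays. Macrophage and neutrophil markers separated the groups and are given beside the results. Array medians lay between 6.09 and 6.22.

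As background, apolipoproteins work in layers. Apob is the scaffold protein of very-low-density and low-density lipoproteins, onto which the liver loads triglyceride. Apoa1 and Apoa2 are the main proteins of high-density lipoprotein (HDL), and Apom, carried mostly on HDL, binds sphingosine-1-phosphate. The small exchangeable proteins set how fast triglyceride leaves the particles. Apoc2 is the cofactor of lipoprotein lipase, Apoc3 and Apoc1 hold clearance back, and Apoa5 promotes lipolysis of triglyceride-rich particles. Apoe is a ligand for receptors that clear remnants. In the mouse, Apoa1, Apoc3, Apoa4 and Apoa5 lie beside each other on chromosome 9, and Apoe, Apoc1 and Apoc2 form a second cluster on chromosome 7.

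The promoters of the chromosome 9 cluster are shown because 1 gene of that cluster, Apoa5, differed between the groups while its neighbours did not pass the test. Each run is the 250 bases before the annotated gene start on the + strand, 5′ to 3′, from the promoter table of RefSeq assembly GRCm38.p6. Capitals mark a TATA box (TATAAA). The runs are Apoa5 at chr9:46268358-46268607, Apoa4 at chr9:46240594-46240843 and Apoa1 at chr9:46228380-46228629.
Apoa5: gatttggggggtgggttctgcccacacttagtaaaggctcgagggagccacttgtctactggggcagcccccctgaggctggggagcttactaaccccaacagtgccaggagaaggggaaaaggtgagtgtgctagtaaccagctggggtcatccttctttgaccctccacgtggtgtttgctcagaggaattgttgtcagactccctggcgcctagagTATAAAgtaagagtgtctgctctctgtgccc
Apoa4: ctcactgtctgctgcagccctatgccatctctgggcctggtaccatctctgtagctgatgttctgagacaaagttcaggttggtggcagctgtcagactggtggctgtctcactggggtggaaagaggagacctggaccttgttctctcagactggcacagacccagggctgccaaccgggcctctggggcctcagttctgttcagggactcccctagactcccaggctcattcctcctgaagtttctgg
Apoa1: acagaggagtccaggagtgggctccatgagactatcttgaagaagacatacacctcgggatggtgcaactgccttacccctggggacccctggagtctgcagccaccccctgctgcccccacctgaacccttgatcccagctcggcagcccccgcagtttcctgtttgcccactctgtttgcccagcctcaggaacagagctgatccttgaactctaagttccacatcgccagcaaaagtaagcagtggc

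Of the 10 genes, 8 had windows in that table, and Apoc1 and Apoc3 had none. Both strands of each window, 250 bases before to 50 after the start, were searched for 4 letter patterns, and matches could overlap. These were the TATA box TATAAA, an HNF4-type CAAAGTCCA, a C/EBP-type TTGCNNAA and a STAT-type TTCNNNGAA, with N for any base. They occur in 13.6%, 0.475%, 10.8% and 8.3% of the 32851 windows of the table. Apoa5 held TATAAA with its first base 31 bases before its first annotated start, and Apoa4 and Apoa1 held none of the 4 patterns. Apob held TATAAA 60 bases and TTGCNNAA 90 bases before its start. Apoa2 held TATAAA in its first window and TTGCNNAA at 2 places in its second, and Apoe held TATAAA on both strands in its second window. The HNF4-type and STAT-type letters were in no window of the 8 genes, which says only that these letters are not there.

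Apoa5 was the 1 apolipoprotein of the 10 that was called. Its levels were 11.40, 11.38, 11.18 and 11.19 in the knockout-labelled arrays, against 10.68, 10.41, 10.44 and 10.74 in the wild-type arrays. Every knockout-labelled array was above every wild-type array. Apoa5 rose by 0.72 (SE 0.10, 95% confidence interval 0.50 to 0.94), a 1.65-fold difference (1.42 to 1.91), with a limma adjusted p of 0.00795. The means were 11.29 ± 0.12 in knockout-labelled arrays and 10.57 ± 0.17 in wild-type arrays, and an exact permutation of the group labels (two-sided, 70 arrangements) gave its smallest possible p, 0.0286. Over all genes, 347 were called higher (1.56%) and 352 lower (1.59%), so 1 of 10 called higher is a count that rests on a single gene. With each array set to a common median, the split over all genes was 209 higher and 330 lower, and Apoa5 was still called.

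**Figure D1:**
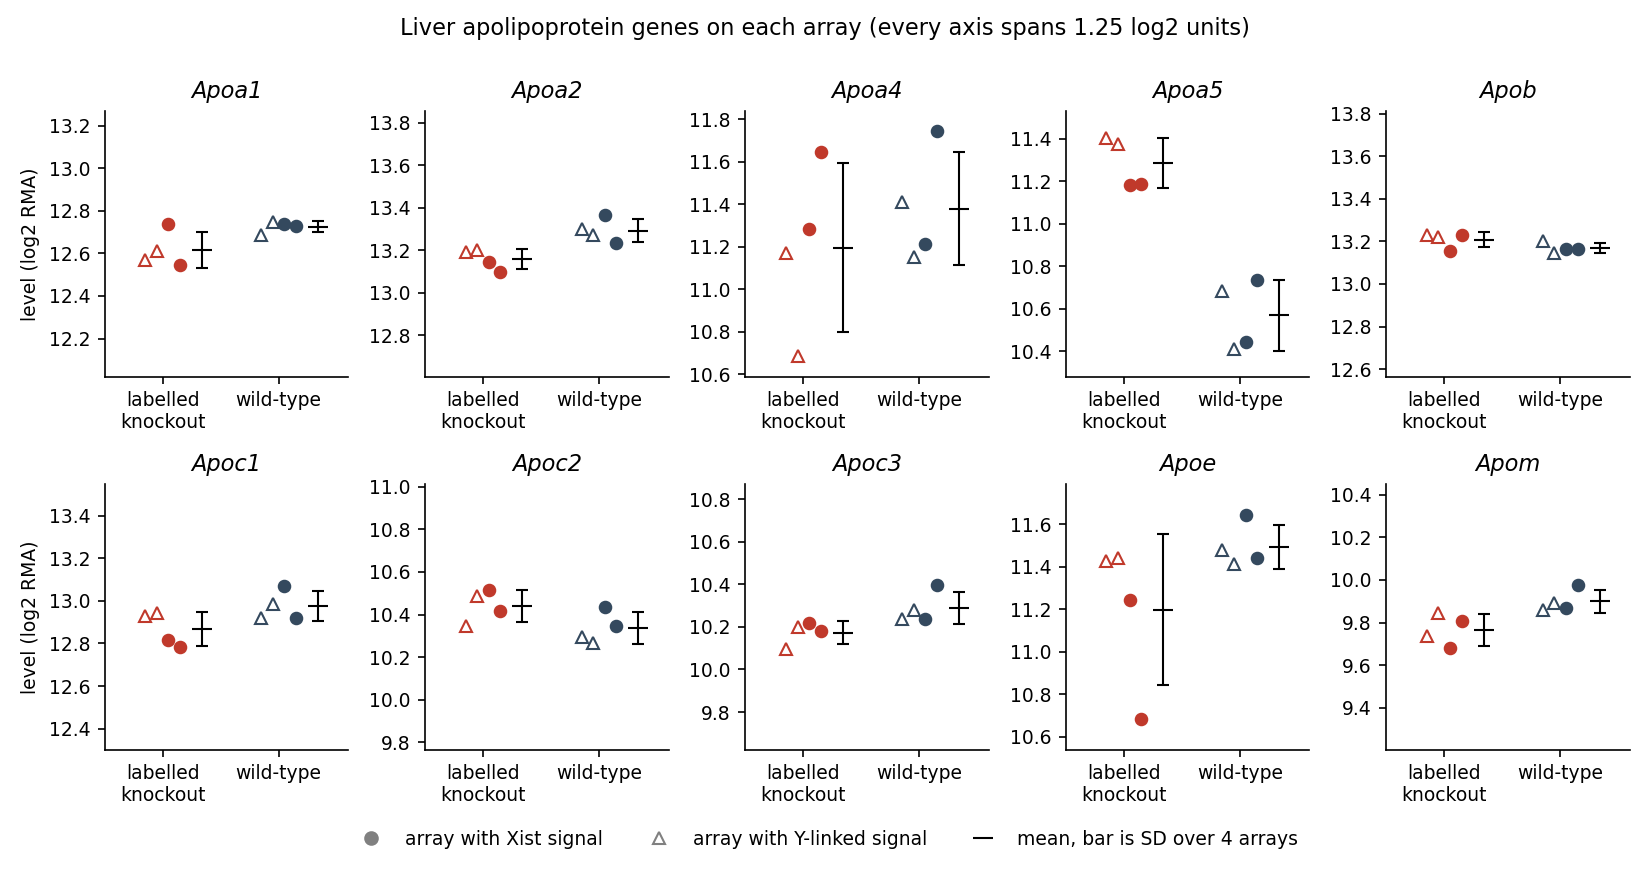
Log2 RMA level of each of the 10 apolipoprotein genes in every array, knockout-labelled arrays left of wild-type arrays in each panel, with the group mean and SD beside them. Filled circles are Xist-signal arrays and open triangles Y-signal arrays. Apoa5 is the panel where the groups are farthest apart, with knockout-labelled arrays between 11.18 and 11.40 and wild-type arrays between 10.41 and 10.74.

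No apolipoprotein of the 10 was called lower by limma, and none of those with a lower mean had an unadjusted p under 0.05. Of the 10 differences, 7 were below 0, and their median was -0.11, against 0.03 over all genes. Among the 1717 genes whose mean was at or above the lowest of the 10, the median was -0.04, with 54 called higher and 61 lower. Setting a common median in each array put 8 of the 10 below 0. For 4 of the 10 genes the groups did not overlap. Apoa5 was apart in the higher direction, against 7.2% of all genes, and Apoa2, Apoc3 and Apom were apart in the lower direction, against 5.74% of all genes. Non-overlap was more common among the 1717 genes, with 173 apart in the higher direction and 207 in the lower. Arrays scattered little around their group means in these genes, with a median pooled SD of 0.070, against 0.133 over all genes. Apoa1, Apoa2, Apob and Apoc1 lay near the top of the scale, at percentiles 99.6 to 99.9 of the genes. The means of Apoa2, Apob and Apoc1 were 0.54, 0.58 and 0.85 log2 units below the highest value of all rows. Whether signal is compressed there, which would make SDs and differences smaller, was not tested.

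**Figure D2:**
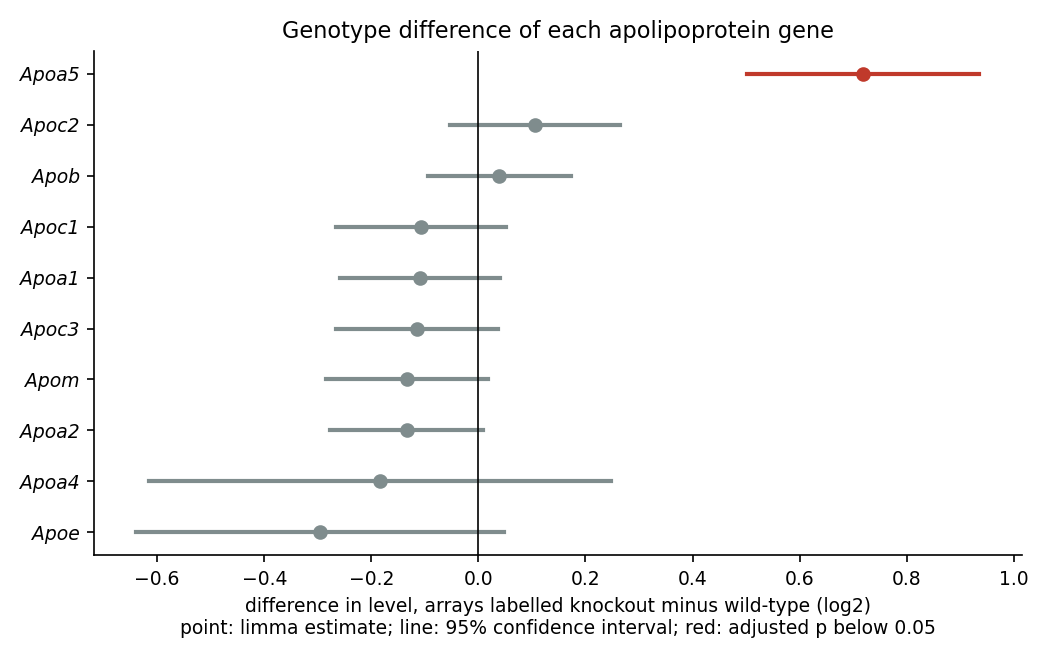
Difference in log2 level, knockout-labelled minus wild-type, for each of the 10 genes, with bars for the 95% confidence interval. The interval of Apoa5 runs from 0.50 to 0.94, and the intervals of the other 9 genes include 0.

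The 3 HDL proteins all had slightly lower means in the knockout-labelled arrays, and none passed the test. Apoa2, which modulates HDL structure and remodelling, read 13.19, 13.20, 13.15 and 13.10 in the knockout-labelled arrays, against 13.30, 13.27, 13.37 and 13.23 in the wild-type arrays. The groups of Apoa2 did not overlap, yet they lay close together, with a difference of -0.13 (95% confidence interval -0.28 to 0.01, limma adjusted p = 0.265). Apoa2 is also the 1 gene of the 10 on the chromosome of Il10, 40.2 Mb from it. Apom read 9.73, 9.85, 9.68 and 9.80 in the knockout-labelled arrays, against 9.86, 9.89, 9.87 and 9.98 in the wild-type arrays. The groups of Apom were also apart, by a narrow gap, and the difference was -0.13 (-0.28 to 0.02, limma adjusted p = 0.288). Apoa1, the structural protein of HDL and activator of lecithin-cholesterol acyltransferase, lay between 12.54 and 12.74 in knockout-labelled arrays and between 12.69 and 12.75 in wild-type arrays. Knockout-labelled replicate 3 of Apoa1 fell within the wild-type range, and the difference was -0.11 (-0.26 to 0.04, limma adjusted p = 0.376).

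The proteins that tune triglyceride clearance, apart from Apoa5, differed by little. Apoc3, an inhibitor of lipoprotein lipase and of remnant uptake, read 10.10, 10.20, 10.22 and 10.18 in the knockout-labelled arrays, against 10.24, 10.28, 10.24 and 10.40 in the wild-type arrays. Its groups were apart by a margin smaller than the spread within either, and the difference was -0.11 (-0.27 to 0.04, limma adjusted p = 0.356). Apoc2, the lipase cofactor, lay between 10.34 and 10.51 in knockout-labelled arrays and between 10.26 and 10.44 in wild-type arrays, with a difference of 0.11 (-0.05 to 0.26, limma adjusted p = 0.415). A further row is annotated to both Apoc4 and Apoc2, and it averaged 12.50 in knockout-labelled arrays and 12.58 in wild-type arrays (difference -0.08, exact two-sided permutation p = 0.171). The 2 rows that name Apoc2 thus differed in sign, with neither past its test. Apoc1, which restrains particle uptake and inhibits lipases, lay between 12.78 and 12.94 in knockout-labelled arrays and between 12.92 and 13.07 in wild-type arrays (difference -0.11, -0.27 to 0.05, limma adjusted p = 0.410).

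Apoa4, made in intestine and liver and tied to chylomicron and triglyceride export, varied most from array to array of the genes in its cluster. It read 11.17, 10.68, 11.28 and 11.65 in the knockout-labelled arrays, against 11.41, 11.15, 11.21 and 11.74 in the wild-type arrays. The groups overlapped through most of their range, and both had their highest value in replicate 4. The difference was -0.18 (-0.61 to 0.25, limma adjusted p = 0.608), an interval that spans changes in either direction.

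Apob, the particle scaffold, lay between 13.15 and 13.23 in knockout-labelled arrays and between 13.15 and 13.20 in wild-type arrays. Its difference of 0.04 had an interval of -0.09 to 0.17 (limma adjusted p = 0.738), and under a common median the sign turned, at -0.01. Apoe, the remnant ligand, read 11.43, 11.44, 11.25 and 10.68 in the knockout-labelled arrays, against 11.48, 11.41, 11.65 and 11.44 in the wild-type arrays. Knockout-labelled replicate 4 stood well below the other 7 arrays, and the rest overlapped. The Apoe difference was -0.30 (-0.64 to 0.05, limma adjusted p = 0.301), and without knockout-labelled replicate 4 it was -0.12.

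The genes on either side of Apoa5 were not called. Among measured genes, in the order of GRCm38.p6, the cluster runs Sik3, Apoa1, Apoc3, Apoa4, Apoa5, Zpr1, and Zpr1, a zinc finger protein gene, lies 1.143 kb from Apoa5. Zpr1 had a difference of -0.04 (limma adjusted p = 0.858) and Sik3, a kinase gene, one of 0.00. Of the flanking genes of this cluster, Sidt2, a lysosomal membrane protein gene, had groups apart, with a difference of 0.23 (limma adjusted p = 0.0946). On chromosome 7, Tomm40 next to Apoe had a difference of 0.03 and Clptm1 next to Apoc2 one of 0.02. Further out there, Bcl3, a co-regulator of NF-kappaB, had a difference of 0.48 and was not called (limma adjusted p = 0.13). These flanking genes were singled out after their values were seen.

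**Figure D3:**
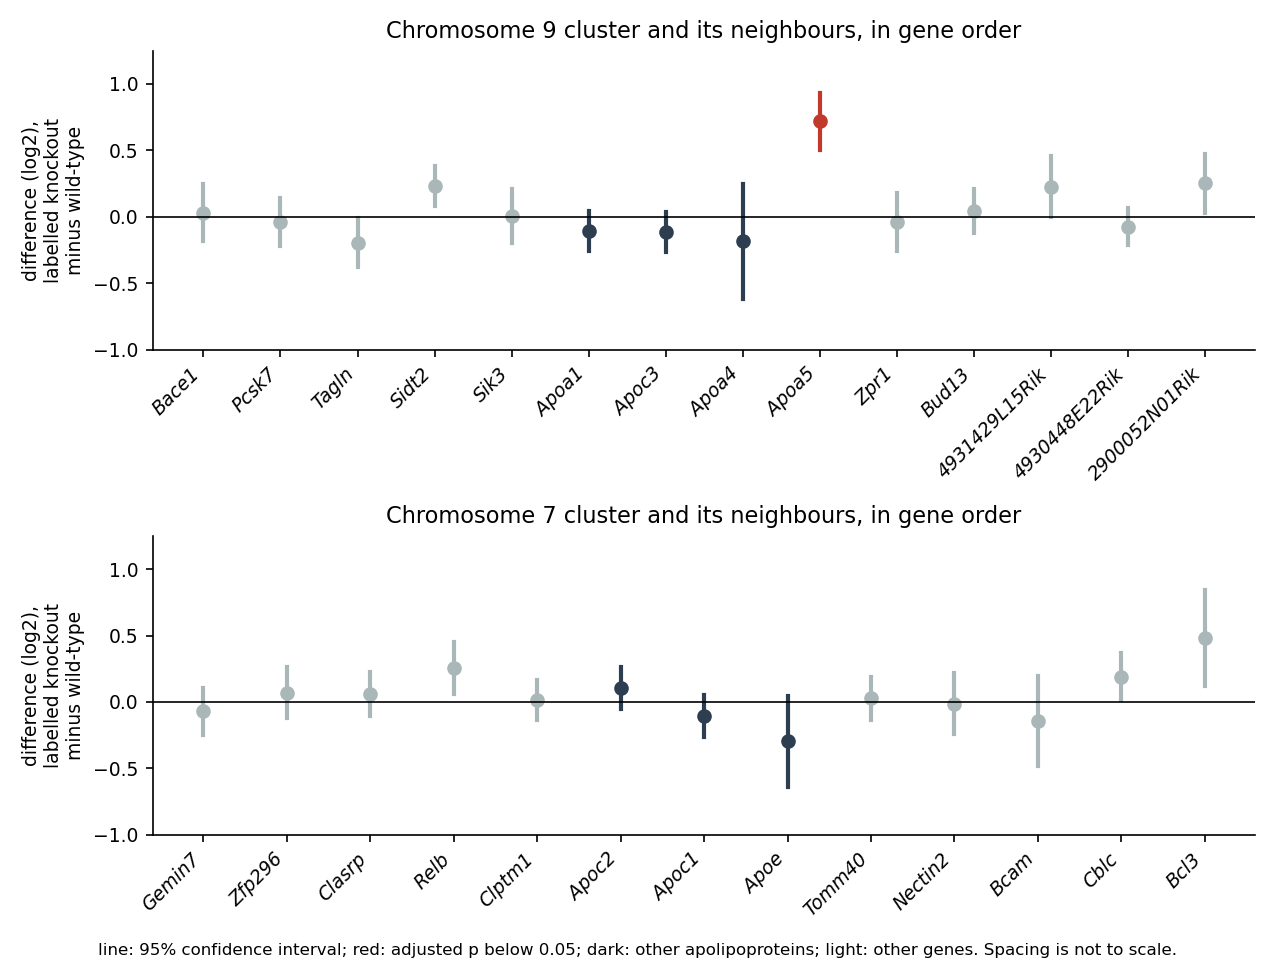
Difference in log2 level, knockout-labelled minus wild-type, for the genes of the chromosome 9 and chromosome 7 apolipoprotein clusters and their neighbours in chromosome order, with 95% confidence intervals. On chromosome 9, Apoa5 stands at 0.72 between Apoa4 at -0.18 and Zpr1 at -0.04.

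The level of Apoa5 can also be read against its cluster neighbours inside each array. Subtracting the level of a neighbour removes anything that scales both genes alike, and only the difference of this value between groups is read. It is a description with no test, since Apoa5 was taken because it separates the groups and its neighbours differ little. Apoa5 minus Apoa1 averaged -1.33 ± 0.17 in knockout-labelled arrays and -2.16 ± 0.18 in wild-type arrays, a difference of 0.83. Apoa5 minus Apoc3 averaged 1.11 ± 0.16 in knockout-labelled arrays and 0.28 ± 0.14 in wild-type arrays, also a difference of 0.83. Apoa5 minus Apoa4 averaged 0.09 ± 0.49 in knockout-labelled arrays and -0.81 ± 0.13 in wild-type arrays, a difference of 0.90. In all 3 comparisons the 4 knockout-labelled arrays lay above the 4 wild-type arrays. The 3 share the Apoa5 values.

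**Figure D4:**
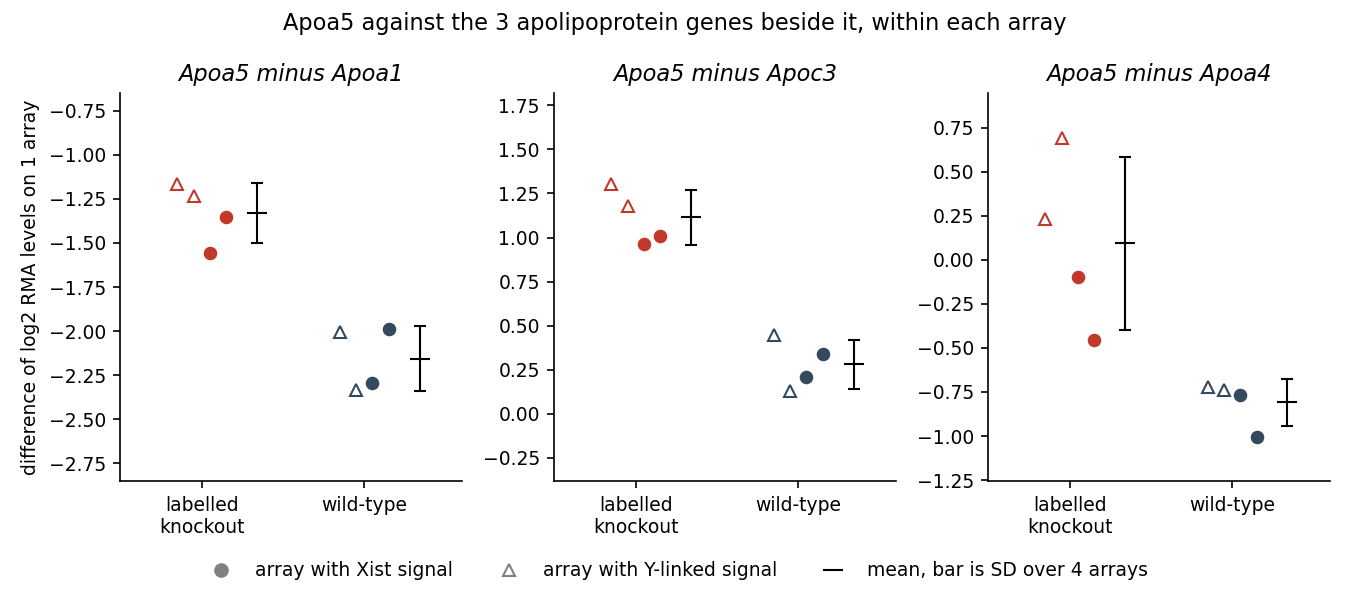
Level of Apoa5 minus the level of Apoa1, Apoc3 or Apoa4 in the same array (log2), knockout-labelled arrays left of wild-type arrays, with the group mean and SD beside them and symbols for Xist-signal (circles) and Y-signal (triangles) arrays. The means differ by 0.83, 0.83 and 0.90, and no knockout-labelled array falls among the wild-type arrays.

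Both sets of arrays held the Apoa5 difference. It was 0.59 in the Xist-signal arrays alone (limma adjusted p = 0.113) and 0.84 in the Y-signal arrays alone (limma adjusted p = 0.0425), with 2 arrays a group in each. The call was lost in the first of these. The difference between the 2 sets, tested as an interaction, was -0.25 (limma adjusted p = 0.928). All 10 genes kept the sign of their difference in both sets. No interaction was called among the 10 by limma (0.0271% of all genes were), and 1 had an unadjusted p under 0.05. That was Apoe, with differences of -0.58 in Xist-signal arrays and -0.01 in Y-signal arrays (interaction -0.57, limma adjusted p = 0.904). The sets themselves, Xist-signal minus Y-signal, gave no limma call among the 10 (0.198% of all genes were called), and again 1, Apoa4, had an unadjusted p under 0.05 (difference 0.37).

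Markers of other cells moved with the groups to different degrees. Over all genes, 1.56% were called higher and 1.59% lower, and 21.2% had an unadjusted p under 0.05. Groups were apart in the higher direction for 7.2% of all genes and in the lower for 5.74%. The marker counts here are to be set against these shares. Of 17 measured hepatocyte markers, 1 was called higher and 1 lower, and their median difference was -0.05. Single differences ran from -1.25 to 0.51, 3 had groups apart in the higher direction and 4 in the lower, and 6 had an unadjusted p under 0.05. The mean level of the hepatocyte markers lay between 12.13 and 12.24 in knockout-labelled arrays and between 12.21 and 12.31 in wild-type arrays. Macrophage markers, whose cells also make Apoe, had 8 of 18 called higher, with a mean level of 9.55 to 10.02 in knockout-labelled arrays and 8.91 to 9.26 in wild-type arrays. Neutrophil markers had 10 of 15 called higher and 1 lower, with a mean level of 7.61 to 8.13 in knockout-labelled arrays and 6.90 to 7.21 in wild-type arrays. Neither list overlapped between the groups, and their part in the apolipoprotein differences was not tested. Markers of small intestinal epithelium, the other main source of Apoa4, Apoa1 and Apob, had a mean level of 6.88 to 6.91 in knockout-labelled arrays and 6.87 to 6.93 in wild-type arrays. Of those 15 markers 1 was called, lower, 9 had differences above 0, 4 had groups apart in the higher direction and 2 in the lower, and 5 had an unadjusted p under 0.05, with a median of 0.09. The defining marker Sis averaged 4.36 in knockout-labelled arrays and 4.42 in wild-type arrays. Of 12 stellate cell markers 2 were called lower, 10 had differences below 0 and 3 had groups apart in the lower direction, with a median of -0.20 and mean levels of 7.60 to 8.35 in knockout-labelled arrays and 8.17 to 8.5 in wild-type arrays. Of the others, 1 of 10 sinusoidal endothelial markers was called higher, 1 of 7 bile duct markers lower, and no adipocyte marker of 7 by limma (2 had an unadjusted p under 0.05). The part of these lists was not tested either. No kidney marker of 10 was called by limma, and 1 had an unadjusted p under 0.05. In the 4 arrays with the lower kidney levels alone (knockout-labelled replicates 3 and 4, wild-type replicates 2 and 4), the Apoa5 difference was 0.61 and was not called (limma adjusted p = 0.149). Both knockout-labelled arrays there are Xist-signal, while wild-type replicate 2 is Y-signal, so kidney level and array set are not separated in that subset.

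Profiles over the 8 arrays were also ranked by likeness to Apoa5, leaving out predicted genes, clone names, pseudogenes, small RNAs and the other 9 apolipoproteins. The most alike were Hspb8, a small heat shock protein, and Crat, carnitine acetyltransferase. Likeness was the root mean square difference between array profiles after centring each gene on its own mean. It was 0.120 for Hspb8 and 0.139 for Crat, where the profile of Apoa5 itself departs from a flat line by 0.380. Hspb8 averaged 11.44 ± 0.13 in knockout-labelled arrays and 10.80 ± 0.09 in wild-type arrays, a difference of 0.64. Crat averaged 10.37 ± 0.09 in knockout-labelled arrays and 9.81 ± 0.16 in wild-type arrays, a difference of 0.57 in the row used. The mean of the 2 rows of Crat gave a smaller difference, 0.38. These differences follow from the choice of profiles like that of Apoa5 and carry no test.

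The wider lipoprotein pathway was covered by 6 lists with 105 measured genes of 120 listed. Of these, 4 were called higher and 4 lower, with a median difference of -0.06. Calls made up 1.56% (higher) and 1.59% (lower) of all genes. Among the 1717 genes at or above the lowest mean of the 10 apolipoproteins, 54 were called higher and 61 lower. The called counts of the lists below are to be set against these. An unadjusted p under 0.05 was common in these data, at 4700 of all 22180 genes (21.2%), and the counts at that threshold below are to be set against that share. In the list of lipases, transfer proteins and their regulators, 2 of 9 measured genes were called, both higher, with a list median of 0.04. Pla2g7, the platelet-activating factor acetylhydrolase carried on lipoproteins and made by macrophages, read 8.09, 8.59, 8.93 and 8.83 in the knockout-labelled arrays, against 7.45, 6.82, 7.21 and 7.39 in the wild-type arrays. Its groups were far apart, and Pla2g7 rose by 1.39 (limma adjusted p = 0.00795). Pltp, which moves phospholipid between lipoproteins and HDL, read 10.54, 10.73, 10.72 and 10.73 in the knockout-labelled arrays, against 10.03, 10.08, 10.35 and 10.14 in the wild-type arrays. The groups of Pltp were apart too, and it rose by 0.53 (limma adjusted p = 0.0152). The Pltp call was lost without knockout-labelled replicate 4, wild-type replicate 1 or wild-type replicate 2 (limma adjusted p up to 0.0535).

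Partners of Apoa5 at the lipase are in that list, and they are named here after their values were seen. Lpl, the lipase, had a difference of -0.60 (limma adjusted p = 0.215). Gpihbp1, which holds the lipase on capillaries, had one of 0.04 (limma adjusted p = 0.789). Also in that list, Angptl4 had a difference of 0.29 (limma adjusted p = 0.305) and Lmf1 one of -0.25 (limma adjusted p = 0.145). Angptl8, a liver hormone that takes part in inhibiting the lipase and that Apoa5 is known to counter, read 10.03, 9.85, 8.68 and 8.70 in the knockout-labelled arrays, against 10.16, 9.96, 10.87 and 11.69 in the wild-type arrays. Its Y-signal arrays lay close together and its Xist-signal arrays far apart. The difference was -1.36 over all arrays (limma adjusted p = 0.105), -2.59 in Xist-signal arrays and -0.12 in Y-signal arrays, and the interaction of -2.47 missed the threshold (limma adjusted p = 0.0978).

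Among lipoprotein receptors, 1 of 16 was called higher and 1 lower, with a median of 0.01. Msr1, the macrophage scavenger receptor, read 9.55, 9.83, 9.34 and 9.79 in the knockout-labelled arrays, against 9.12, 8.70, 9.16 and 9.16 in the wild-type arrays. Msr1 rose by 0.59 (limma adjusted p = 0.0477), and the call was lost with the replicate number as a block (limma adjusted p = 0.0907) and with a common median (0.0801). Sort1, a sorting receptor that affects export of Apob particles, read 9.12, 8.58, 7.97 and 8.39 in the knockout-labelled arrays, against 9.48, 9.89, 9.55 and 9.20 in the wild-type arrays. Sort1 fell by 1.01 (limma adjusted p = 0.0408), but its 2 rows differ, and their mean gave -0.46 (limma adjusted p = 0.0515). The groups did not overlap for either gene, but each call was lost in 7 of the 8 fits with 1 array left out. Msr1 was called only without knockout-labelled replicate 3 when arrays were left out in turn (difference 0.48 to 0.69, limma adjusted p up to 0.132), and Sort1 only without knockout-labelled replicate 1 (difference -1.21 to -0.83, limma adjusted p up to 0.113).

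In the list for sterol efflux and HDL formation, 1 of 11 was called higher and 1 lower, with a median of -0.12. Abca1, the transporter that loads lipid onto Apoa1 to form HDL, read 11.37, 11.13, 11.59 and 11.70 in the knockout-labelled arrays, against 10.85, 10.78, 10.75 and 10.79 in the wild-type arrays. Wild-type values were tightly grouped and all below the knockout-labelled ones, and Abca1 rose by 0.65 (limma adjusted p = 0.0189). That call was lost without wild-type replicate 1, 2 or 3 (limma adjusted p up to 0.0612). Abcb11, the bile salt export pump, read 11.14, 10.95, 10.75 and 10.48 in the knockout-labelled arrays, against 11.80, 11.35, 11.52 and 11.43 in the wild-type arrays. Abcb11 fell by 0.70 (limma adjusted p = 0.0351), and with arrays left out in turn it was called only without knockout-labelled replicate 1 (limma adjusted p up to 0.098).

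Among 33 measured regulators of apolipoprotein genes, 2 were called lower and none higher by limma, 8 had an unadjusted p under 0.05, and the median was -0.07. Mlxipl encodes ChREBP, a carbohydrate-responsive factor of hepatic lipid synthesis. It read 10.71, 10.62, 10.38 and 10.18 in the knockout-labelled arrays, against 11.43, 11.18, 11.22 and 11.25 in the wild-type arrays. Every knockout-labelled array was below every wild-type array, and Mlxipl fell by 0.80 (limma adjusted p = 0.0101). Ppara, the fatty acid sensor of liver, known from human cells to act on the Apoa5 promoter, read 9.56, 9.19, 8.70 and 8.70 in the knockout-labelled arrays, against 9.79, 9.76, 9.97 and 9.87 in the wild-type arrays. Its lowest values were the 2 Xist-signal knockout-labelled arrays. Ppara fell by 0.81 (limma adjusted p = 0.0401), and with arrays left out in turn it was called only without knockout-labelled replicate 1 (limma adjusted p up to 0.117). With the replicate number as a block its limma adjusted p was 0.0651. Creb3l3, a liver transcription factor known in mice to drive Apoa5 and other lipase activators, had groups apart with a difference of 0.32 and was not called (limma adjusted p = 0.0622). Hnf4a, a liver nuclear receptor that acts on many apolipoprotein promoters, had a difference of 0.17 (limma adjusted p = 0.221). Creb3l3 and Hnf4a were named after their values were seen, and 0.32 was the highest difference in the list. Of the 33 regulators, 11 had differences above 0 and 22 below 0. Groups were apart in the higher direction for 2 of them, against 7.2% of all genes, and in the lower for 4, against 5.74%.

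No gene of the other 2 lists was called by limma over all arrays. Among 20 other apolipoproteins and related lipoprotein proteins, 8 had an unadjusted p under 0.05 and the median was 0.03. Saa2, an acute-phase protein carried on HDL, had the smallest p, with a difference of 0.62 (limma adjusted p = 0.0867). Among 16 genes of particle assembly and editing, 4 had an unadjusted p under 0.05 and the median was -0.10. Sar1b, a small GTPase for export of large particles from the endoplasmic reticulum, had the smallest p, with a difference of -0.37 (limma adjusted p = 0.0607). Sar1b passed the threshold with the array set as a block (limma adjusted p = 0.0441), with low genes left out (0.0481), with cyclic loess (0.0456), with trend and robust settings (0.0493) and without knockout-labelled replicate 1 (0.015). Mttp, which loads lipid onto Apob, had a difference of -0.19 (limma adjusted p = 0.184), and Apobec1, which edits the Apob message, had one of 0.00 (limma adjusted p = 0.996). These last 2 were named after their values were seen.

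**Figure D5:**
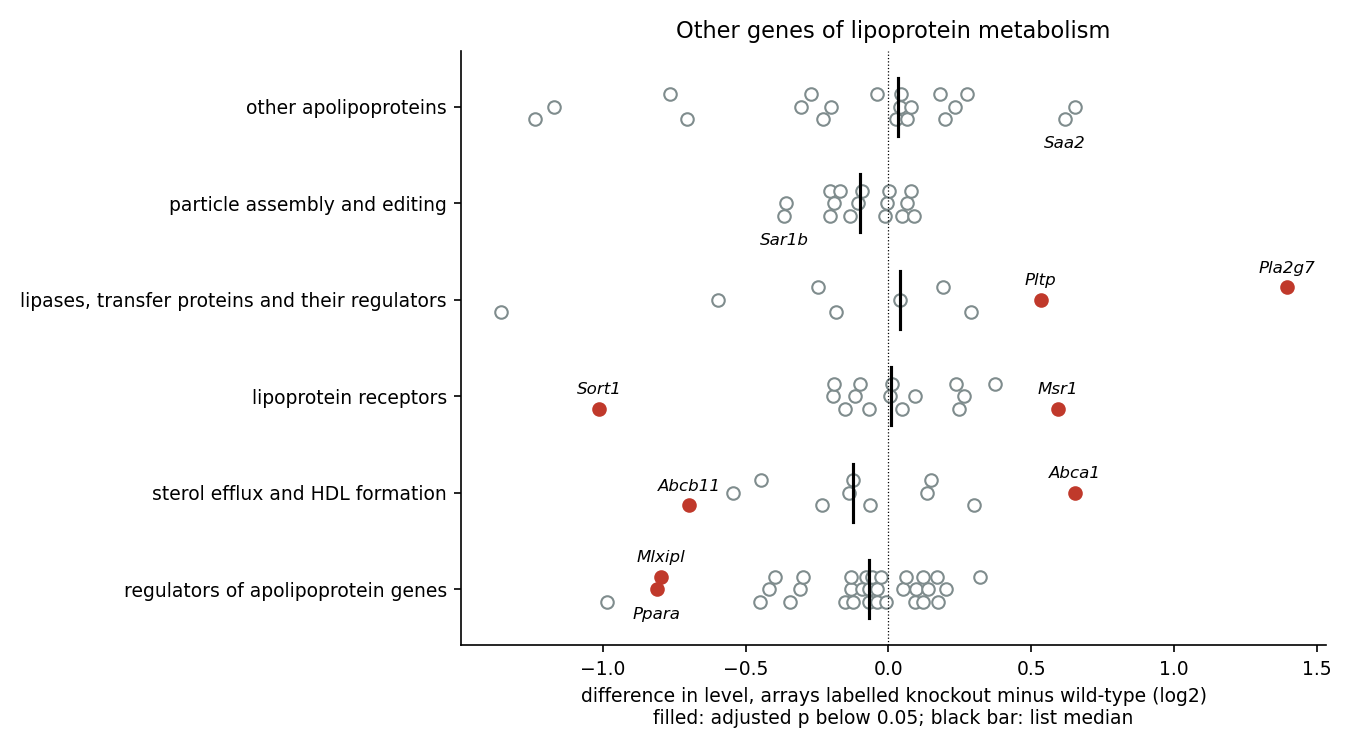
Difference in log2 level, knockout-labelled minus wild-type, for the measured genes of 6 lists of lipoprotein metabolism, with filled points for genes past the test and a bar at each list's median. The 8 filled points are Pla2g7, Pltp, Msr1 and Abca1 on the higher side and Sort1, Abcb11, Mlxipl and Ppara on the lower side, and the list medians lie between -0.12 and 0.04.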

How the data were processed

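Liver RNA of 8 arrays was analysed from the deposited log2 values, which per the submitters' processing notes the authors made by RMA with R 3.0.1. The sources used here do not give the background settings, the probe summary or the build. The table holds 41345 rows between 2.49 and 13.8. By the platform annotation 23521 rows name 1 gene, 1814 several and 16010 are unlisted, which gave 22180 genes. For 1082 genes with several rows the row of highest mean was kept. Groups come from the titles.

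Levels were compared, knockout-labelled minus wild-type, with limma 3.58.1 (lmFit, eBayes) in R 4.3.3 over all 8 arrays without covariates or filter, with Benjamini-Hochberg over all genes. Single genes were also compared by exact two-sided permutation. The steps were tested on simulated data. The number of arrays limits precision. No 2 arrays repeat each other (closest root mean square difference 0.261).

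The genes, lists and tests were chosen with earlier results of these data known. Genes named are the 10 apolipoproteins, Il10 and up to 4 called genes of each pathway list by smallest p. Where a list had no called gene, its gene of smallest p is named. Also named are defining cell markers that read low. The 2 profiles nearest to each called apolipoprotein are named too, with predicted genes, clone names, pseudogenes and small RNAs left out. Others are said to be chosen later. Same-numbered arrays deviated together with correlations of 0.27, 0.04, -0.10 and 0.29, so the numbers were not taken as pairs. Alternatives were other rows, filters, normalizations, variance settings, blocks, thresholds and arrays left out. Promoters and gene order are from RefSeq GRCm38.p6. Listed genes without a row naming them alone are not analysed here.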

Additional observations from a re-analysis of the deposited data

Results flagged for a closer look

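Apob in knockout-labelled replicate 3, at 13.15 log2 units, lay far from the other knockout-labelled arrays of that gene for so small a group. The gap to its nearest neighbour was 0.872 of the group's whole range, above the 95% critical value of Dixon's test for 4 arrays. The whole range of Apob is narrow, and leaving an array out kept its difference between 0.03 and 0.06. With 20 groups of 4 tested over the 10 genes, about 1 such gap arises by chance.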

How the results depend on the processing

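The call of Apoa5 held in 19 of 21 alternatives. Its difference lay between 0.67 and 0.77 when 1 array was left out (limma adjusted p 0.0111 to 0.0305), and over all alternatives between 0.59 and 0.84. It was lost in the Xist-signal arrays alone and in the 4 arrays with lower kidney marker levels alone, so that the count of the 10 genes called higher was 0 in both, each with fewer arrays. The kidney setting was chosen after seeing the data. Of the other 9 genes none was called under any alternative. The Apob difference turned to -0.0119 with a common median per array, and the Apoa4 difference turned to 0.0162 in the arrays with lower kidney levels. With the replicate number as a block, the limma adjusted p of Apoa5 was 0.0184, and the pathway counts were 3 higher and 3 lower; the numbers do not pair the arrays. The pathway counts, 4 higher and 4 lower, were less stable. Lower counts were 1 with every row of the table, 9 with the array set as a block, 7 in Xist-signal arrays alone, 1 in Y-signal arrays alone and 9 at an adjusted p below 0.1. Higher counts were 2 in Xist-signal arrays alone, 0 in Y-signal arrays alone, 7 at an adjusted p below 0.1 and 2 in the arrays with lower kidney levels. Leaving out 1 array gave 1 to 6 higher and 1 to 9 lower, with 9 lower without knockout-labelled replicate 1. Calls over all genes also moved, at 109 to 429 higher and 96 to 611 lower, with 611 lower without that same replicate. Over all genes, Xist-signal arrays alone gave 133 higher and 184 lower, and Y-signal arrays alone 102 higher and 69 lower. Why these counts moved was not tested. Pla2g7 and Mlxipl were called with any 1 array left out and lost the call in Y-signal arrays alone.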
